A study of Mus musculus with 3 samples.

Results

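The 10 genes of hydrogen peroxide handling described here were followed in airspace immune cells of mice exposed to ozone: the peroxiredoxins Prdx1, Prdx2, Prdx3, Prdx5 and Prdx6, thioredoxin (Txn1), glutathione reductase (Gsr), Park7, catalase (Cat) and superoxide dismutase 1 (Sod1). They were chosen by symbol for their part in this chemistry, with earlier results of these data known. Counts of members beside all genes are therefore descriptive. All 10 were found, each in 1 row, among the 33696 genes of the count tables. The mice were wild-type C57BL/6J of 12 weeks. Exposure lasted 3 hours, to filtered air in the control group and to ozone at 1 ppm or at 1.5 ppm in the others, with bronchoalveolar lavage 22 to 24 hours after it. In each group the cells of 3 to 4 mice were pooled before droplet sequencing, so each group is 1 library. There are no biological replicates, no test between groups is possible, and every interval given is a 95% interval that covers counting error only.

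Hydrogen peroxide is made in cells by oxidases, by respiring mitochondria and by superoxide dismutases, which turn superoxide into peroxide. Peroxiredoxins remove it with a reactive cysteine that thioredoxin then reduces again, catalase splits it directly in peroxisomes, and glutathione reductase keeps the glutathione pool reduced with NADPH. Alveolar macrophages, the resident phagocytes of the airspace, meet inhaled oxidants such as ozone directly, and several of these genes are known targets of the oxidant-responsive factor Nrf2.

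Nrf2 acts through antioxidant response elements, so the RefSeq promoter table (build GRCm38.p6, 250 bases before to 50 after each start) was searched for the core TGACNNNGC on both strands, and for the related AP-1 motif TGANTCA. Promoters were in the table for 8 members, Prdx1, Prdx2, Prdx3, Prdx5, Txn1, Park7, Cat and Sod1, with 1 each. Those not in it were Prdx6 and Gsr. The core was found in Prdx1 and Sod1, against 12.4% of the 32851 promoters in the table, and TGANTCA in Prdx1 only, at 2 places, against 7.81% of promoters. The matches are shown because Prdx1 is the member that varied most between macrophages; capitals mark the motif, and the letters read along the gene's strand, which is the plus strand for both genes. A match describes these letters and shows no binding.
Prdx1 antioxidant core, chr4:116685455-116685485, 133 bases before the start, core on the opposite strand and overlapping 1 of the AP-1 matches: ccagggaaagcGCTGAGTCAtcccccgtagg
Prdx1 AP-1, the other match, chr4:116685351-116685379, 237 bases before the start: aaacgaggaaaTGACTCAaagggcagtgc
Sod1 antioxidant core, chr16:90220695-90220725, 56 bases before the start, core on the opposite strand: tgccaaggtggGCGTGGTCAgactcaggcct

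After removal of barcodes under 500 UMIs or 300 genes or above 10% mitochondrial UMIs, the libraries for filtered air, 1 ppm and 1.5 ppm held 3479, 2241 and 6577 cells. A UMI (unique molecular identifier) marks 1 captured transcript. Alveolar-macrophage-like cells made up 3312, 2119 and 5669 of them, with 49632169, 37211229 and 89778400 UMIs in sum. Levels are given as CPM, the UMIs of a gene per 1000000 UMIs of that sum. The kit reads transcripts from the poly(A) end, so levels are not divided by gene length. The median mitochondrial share of these macrophages was 4.12% in air, 3.97% at 1 ppm and 2.31% at 1.5 ppm, and the libraries lost 34.4%, 30.7% and 9.52% of their barcodes to the filters. Pairs of libraries shared between 4 and 10 cell barcodes. All 13 macrophage markers were found in each library's macrophages, with a summed level of 14896 CPM in air, 16272 CPM at 1 ppm and 11972 CPM at 1.5 ppm.

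Together the 10 members accounted for 3549 CPM in air, 3656 CPM at 1 ppm and 4711 CPM at 1.5 ppm in the macrophages. At 1.5 ppm, Txn1, Park7 and Prdx5 were at least 1.5-fold above air, Prdx2 was just under that, Cat was lower, and Prdx1 and Gsr were within 1.10-fold of air. At 1 ppm no member reached 1.5-fold in either direction. A gene counted as called when it differed 1.5-fold or more. To be considered it had to reach 50 CPM in the higher of the compared libraries and 100 UMIs over all 3. Prdx3 and Prdx6 stayed under 50 CPM in every library, which left 8 members to consider.

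**Figure D1:**
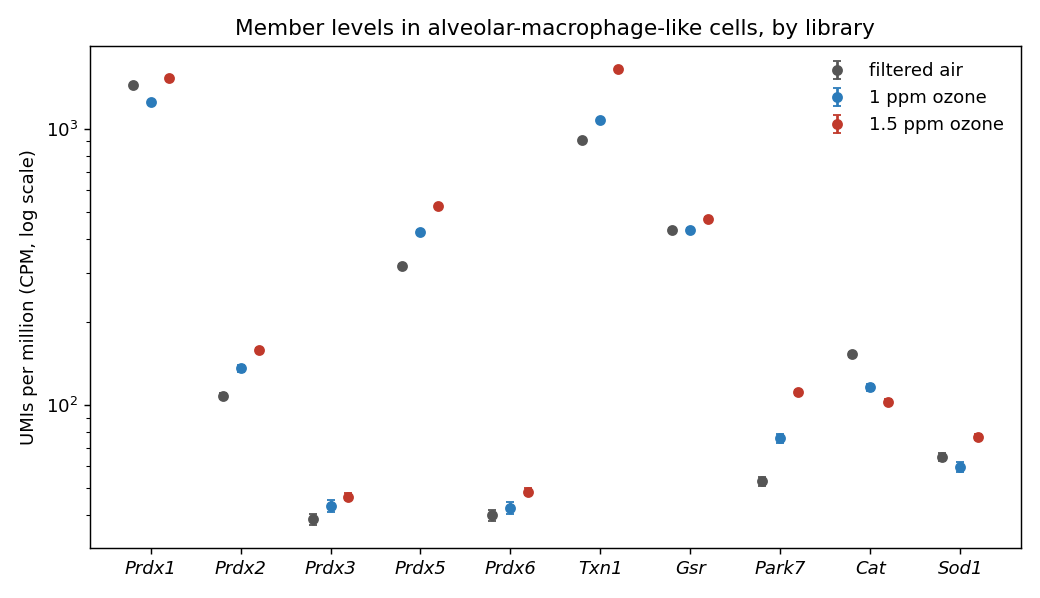
Level of each of the 10 genes in alveolar-macrophage-like cells of the 3 libraries, in CPM on a log axis. Points are single pooled libraries and bars are 95% counting intervals, so bars do not show differences between mice. Txn1, Park7, Prdx5, Prdx2, Prdx3 and Prdx6 stand in the order air, 1 ppm, 1.5 ppm, and Cat in the reverse order. For Prdx6 the interval of the ratio of 1 ppm to air included 1.

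At 1 ppm against air, 0 of 8 members were called, where 1.17% of the 4028 genes considered were (0.372% higher and 0.794% lower). At 1.5 ppm against air, 3 of 8 were called, Txn1, Park7 and Prdx5, all higher, where 11.3% of 4161 genes were called, 7.86% higher and 3.46% lower. At 1.5 ppm against 1 ppm, 1 of 8 was called, Txn1, higher, where 5.9% of 4053 genes were, 4.52% higher and 1.38% lower. The median log2 ratio of the members was 0.12, 0.40 and 0.30 in these comparisons, beside -0.08, -0.12 and -0.01 over all genes considered. Ratios above 0 were found for 4, 7 and 7 of the 8 members, and for 34.9%, 37.5% and 47.8% of all genes. Both ozone comparisons share the air library, and the third shares a library with each of them.

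Transcript length moved with these ratios. The longest annotated transcripts of the members span 641 to 2673 bases, all shorter than the median considered gene at 3488 bases. Over the 1038 genes with the shortest transcripts the median log2 ratio was 0.15 at 1 ppm and 0.28 at 1.5 ppm against air, and over the 1038 with the longest -0.18 and -0.22. Centred on genes of like transcript length, no member stayed past 1.5-fold at 1.5 ppm against air: Park7 had a log2 ratio of 0.55, Txn1 0.42 and Prdx5 0.42, all still above 0. Sod1 changed sign on that scale, from 0.24 to -0.17. The mitochondrial share moved with the 1.5 ppm library too. Macrophages of 2.5 to 4% mitochondrial UMIs numbered 1285 in air, 957 at 1 ppm and 1601 at 1.5 ppm. Among them Park7, Txn1 and Prdx5 had log2 ratios of 1.01, 0.74 and 0.69 at 1.5 ppm against air. The part of the mitochondrial share in the ratios was not tested. In bulk sums like these, a change in the mix of macrophage states and a change within each state cannot be told apart from the sums alone, and levels within clusters are given further on. The mix did differ: cluster 0, led by Dnah11, held 1045 macrophages in air and 208 at 1.5 ppm, while cluster 1, led by the sterol synthesis genes Fdps, Cyp51 and Idi1, held 125 and 966, and cluster 4, led by Kazald1, held 38 and 946.

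**Figure D2:**
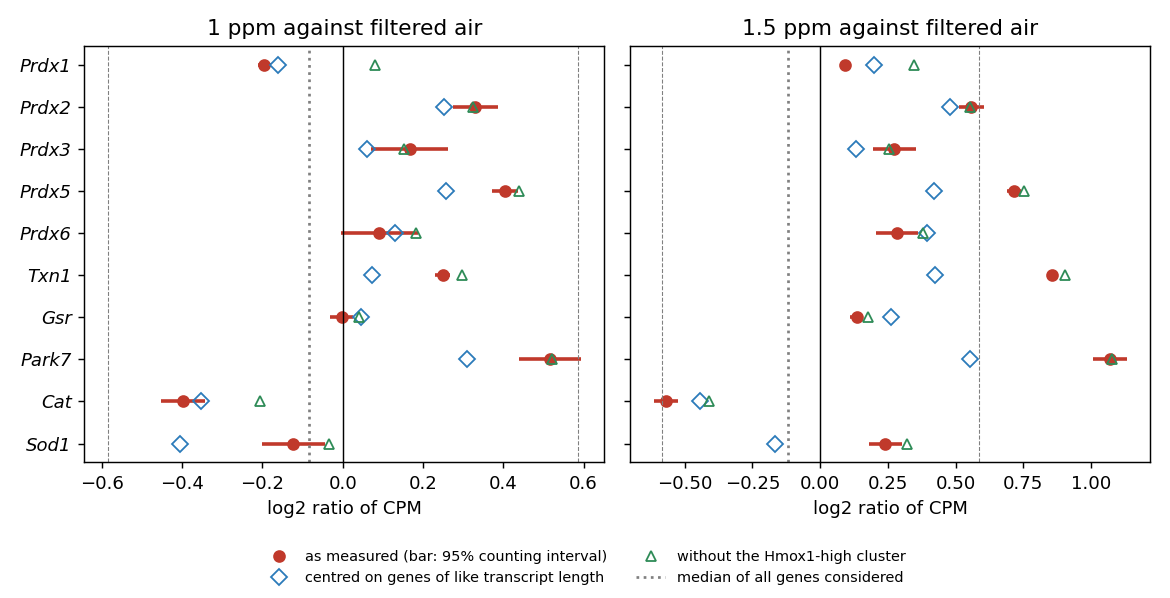
Log2 ratio of CPM against filtered air at 1 ppm (left) and 1.5 ppm (right). Filled points are the measured ratios with 95% counting intervals, diamonds are the same ratios centred on genes of like transcript length, and triangles leave out the cluster with the highest Hmox1 level; dashed lines mark 1.5-fold and the dotted line the median of all genes considered. Prdx1 lies at -0.20 at 1 ppm as measured and at 0.08 without that cluster.

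Txn1, the small dithiol protein that reduces peroxiredoxins, stood at 907 CPM in air (interval 899 to 915), 1078 CPM at 1 ppm (1067 to 1088) and 1640.2 CPM at 1.5 ppm (1632 to 1649). The 1.5 ppm library was the highest by far, at 1.81-fold of air (1.79 to 1.83) and 1.52-fold of 1 ppm (1.51 to 1.54), while 1 ppm was 1.19-fold of air. Txn1 passed Prdx1 as the most abundant member at 1.5 ppm. Thinned to 3000 UMIs per cell, 86.8% of air macrophages, 89.3% at 1 ppm and 93.7% at 1.5 ppm had a Txn1 UMI, and the median cell held 2, 3 and 4. Without thinning the shares were 97.6%, 98.0% and 97.4%. No cell class in the lavage is known to lack these genes, so no share of cells from a class without them is available as background.

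Park7 encodes DJ-1, a protein with a peroxide-sensitive cysteine. Its level was 53.1 CPM in air (51.1 to 55.1), 75.9 CPM at 1 ppm (73.1 to 78.7) and 111 CPM at 1.5 ppm (109 to 114). It had the largest ratio of any member, 2.10-fold of air at 1.5 ppm (2.01 to 2.19) and 1.43-fold at 1 ppm (1.36 to 1.51). A Park7 UMI was seen in 454 of 3296 thinned macrophages in air (13.8%), in 403 of 2109 at 1 ppm (19.1%) and in 1465 of 5572 at 1.5 ppm (26.3%). Unthinned shares were 49.0%, 65.9% and 68.7%.

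Prdx5, an atypical peroxiredoxin found in mitochondria, peroxisomes and cytosol, was at 319 CPM in air (314 to 324), 422 CPM at 1 ppm (415 to 429) and 523 CPM at 1.5 ppm (519 to 528). The 3 libraries were ordered by dose with intervals apart, and the ratio to air was 1.32 at 1 ppm (1.29 to 1.35) and 1.64 at 1.5 ppm (1.61 to 1.67). Prdx2, a cytosolic peroxiredoxin abundant in red cells, was at 108, 136 and 159 CPM in the same order, 1.26-fold and 1.47-fold of air. Its log2 ratio at 1.5 ppm, 0.56, lay just inside the 1.5-fold limit. Red cell RNA also differed: the 4 erythroid markers (Hbb-bs, Hba-a1, Hba-a2 and Alas2) summed to 16.7 CPM in air macrophages, 0.269 CPM at 1 ppm and 42.2 CPM at 1.5 ppm. They were lowest at 1 ppm, where 3 of the 4 were at 0 and Prdx2 was above air, and their part in the Prdx2 ratio was not tested.

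The mitochondrial Prdx3 was measured at 38.6 CPM in air, 43.3 CPM at 1 ppm and 46.7 CPM at 1.5 ppm, a ratio of 1.21 between the outer 2 (1.15 to 1.28). Prdx6, a peroxiredoxin that also has phospholipase activity and serves in surfactant turnover, was at 39.9, 42.5 and 48.6 CPM, 1.22-fold of air at 1.5 ppm (1.15 to 1.29). At 1 ppm its interval against air, 0.996 to 1.14, included 1. Prdx6 is far higher in airway epithelium, as given further on, and the 10 airway epithelial markers summed to 248, 180.3 and 234 CPM in the macrophages, none at 0; their part in the Prdx6 levels was not tested. Its near-identical copy Prdx6b was listed with 0 UMIs in these cells, and the handling of reads that fit more than 1 gene is, in the sources used here, not given.

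Gsr was level between air, at 431 CPM, and 1 ppm, at 430.2 CPM, with a ratio whose interval of 0.978 to 1.02 included 1. At 1.5 ppm it was 473 CPM, 1.10-fold of air (1.08 to 1.12). Sod1, the copper-zinc enzyme of the cytosol, was at 65.0 CPM in air, 59.7 CPM at 1 ppm and 76.8 CPM at 1.5 ppm. Its 1 ppm library was the lowest, at 0.918-fold of air (0.869 to 0.969), and its 1.5 ppm library the highest, at 1.18-fold (1.13 to 1.23).

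Cat, the peroxisomal enzyme, was the only one of the 10 members below air in both ozone libraries: 153 CPM in air (149 to 156), 116 CPM at 1 ppm (112 to 119) and 103 CPM at 1.5 ppm (101 to 105). The ratios to air were 0.759 (0.731 to 0.788) and 0.674 (0.654 to 0.695), short of a 1.5-fold difference. At 1.5 ppm it passed 1.5-fold under a stricter cell filter (log2 -0.61) and with mitochondrial genes left out of the sums (-0.60). Over all alternatives that give a ratio, it ran from -0.74 to -0.34. It was weakest without cells of 3 or more UMIs of the G2 and M phase genes given further on. Thinned macrophages held a Cat UMI in 31.8% of cells in air, 27.8% at 1 ppm and 26.8% at 1.5 ppm, and unthinned in 77.3%, 79.0% and 69.5%.

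Prdx1, a cytosolic peroxiredoxin and the most abundant member in air, did not follow dose. Its level was 1435 CPM in air (1424 to 1445), 1253 CPM at 1 ppm (1242 to 1265) and 1528 CPM at 1.5 ppm (1520 to 1536). The 1 ppm library was the lowest, at 0.873-fold of air, and 1.5 ppm stood at 1.07-fold. Yet the share of thinned macrophages with a Prdx1 UMI was lowest in air, at 89.8% (88.7 to 90.8%), against 93.0% at 1 ppm and 92.3% at 1.5 ppm, and the median cell held 3 UMIs in all 3. Without thinning the shares were 98.8%, 98.8% and 98.3%. The spread among cells was widest in air: the Fano factor, variance over mean of the thinned counts, was 9.11 in air, 2.96 at 1 ppm and 4.59 at 1.5 ppm. Cells with 10 or more Prdx1 UMIs of 3000 made up 5.64% in air (interval 4.88 to 6.49%). Their share was 2.99% at 1 ppm (2.30 to 3.81%), the lowest of the libraries, and 7.18% at 1.5 ppm (6.51 to 7.89%). The highest single cell held 91 in air, 48 at 1 ppm and 62 at 1.5 ppm.

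Much of the Prdx1 in air sat in few cells. Cells were clustered with the members and their pathway genes left out, so a member's level did not place a cell in its cluster. Cluster 13, led by the heme oxygenase gene Hmox1, the cystine transporter gene Slc7a11 and the chaperone gene Hspa1a, held 85 air macrophages, 10 at 1 ppm and 64 at 1.5 ppm. Of the 13 macrophage markers, 6 were seen in at least 25% of its cells at 25% or more of their highest cluster level, against 11 or more in clusters 0 to 9. These cells were 2.57%, 0.472% and 1.13% of each library's macrophages, and they carried 21.8%, 2.81% and 4.56% of its Prdx1 UMIs. The Prdx1 level in cluster 13 was 10061 CPM in air (9904 to 10221), 6077 CPM at 1 ppm (5752 to 6415) and 6749 CPM at 1.5 ppm (6583 to 6918). In air the same cells carried 16.9% of Cat UMIs, at 832 CPM, 10.4% of Prdx6 UMIs and 9.30% of Sod1 UMIs, but 3.42% of Park7 and 1.98% of Prdx3 UMIs, against 3.11% of all UMIs.

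Without cluster 13 the Prdx1 log2 ratio to air was 0.08 at 1 ppm in place of -0.20, and 0.35 at 1.5 ppm in place of 0.09. Cat moved from -0.40 to -0.21 at 1 ppm and from -0.57 to -0.41 at 1.5 ppm, and stayed below 0. The log2 ratios of Txn1, Park7 and Prdx5 at 1.5 ppm were 0.91, 1.08 and 0.75 without it.

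The same contrast was read with single cells set apart by Hmox1 alone, which is no member. Thinned macrophages with 2 or more Hmox1 UMIs numbered 297 in air, 116 at 1 ppm and 362 at 1.5 ppm, beside 2341, 1619 and 4163 with none. Prdx1 was 4.58-fold higher in the Hmox1-positive cells of the air library (4.50 to 4.65), 1.82-fold at 1 ppm (1.76 to 1.87) and 2.34-fold at 1.5 ppm (2.31 to 2.38). Cat was 3.25-fold higher in air (3.08 to 3.43), 1.46-fold at 1 ppm (1.31 to 1.62) and 2.17-fold at 1.5 ppm (2.04 to 2.30). Between 5.05% of genes in air and 2.53% at 1.5 ppm were 1.5-fold or more higher in these cells, and the median log2 ratio of all genes was between -0.07 and -0.06. In all 3 libraries Prdx1 and Cat had the largest ratios of the members, and the ratios of both were largest in air. The contrast between positive and negative cells was not alike in the 3 libraries. Hmox1 itself was 41.0-fold higher in positive cells in air, 18.3-fold at 1 ppm and 17.4-fold at 1.5 ppm. Slc7a11 was 55.9-fold, 16.6-fold and 26.8-fold higher. As ratios to each library's own cells with none, these do not show which set of cells differed. The part of this difference in the larger air ratios of Prdx1 and Cat was not tested.

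The order of members here was not that of the ozone ratios. Sod1 (log2 1.03, 0.29 and 0.41 in air, 1 ppm and 1.5 ppm), Prdx6 (1.11, 0.46 and 0.46) and Txn1 (0.75, 0.50 and 0.50) were higher in Hmox1-positive cells of each library. Gsr had log2 ratios of 0.67, 0.10 and 0.22, and Prdx5 of 0.44, 0.11 and 0.13. Park7, which had the largest ratio with 1.5 ppm ozone, had log2 ratios of 0.10, 0.16 and 0.17, and its intervals in air and at 1 ppm included 1. Prdx2 and Prdx3 had log2 ratios between -0.15 and 0.20. Of the partner genes, Srxn1, which repairs over-oxidised peroxiredoxins, was 9.88-fold, 4.33-fold and 5.84-fold higher in Hmox1-positive cells, and Txnrd1, which reduces thioredoxin with NADPH, was 4.67-fold, 2.21-fold and 2.92-fold higher.

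**Figure D3:**
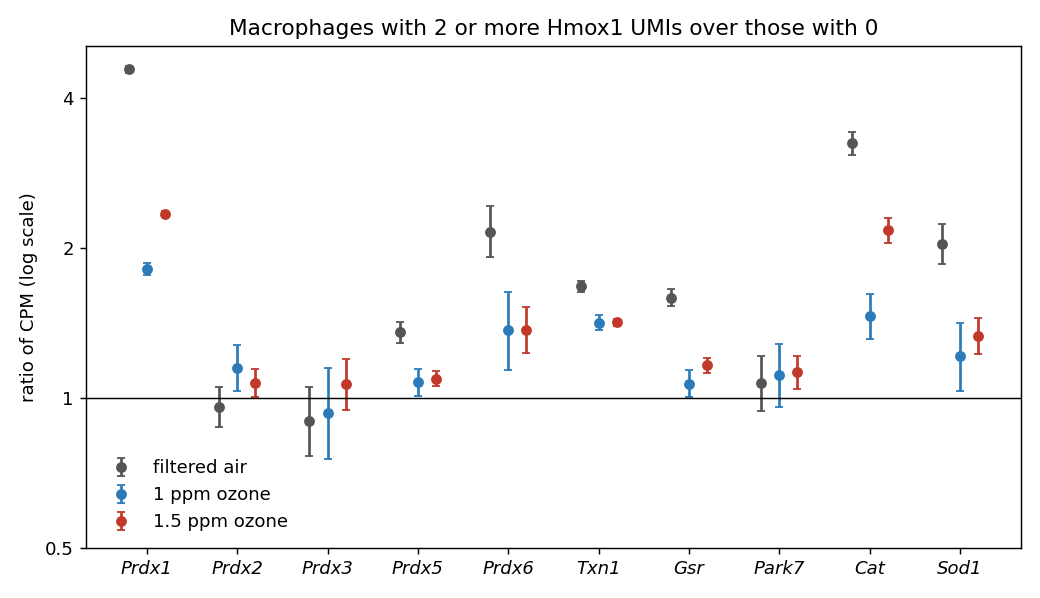
Ratio of each member's CPM in macrophages with 2 or more Hmox1 UMIs to that in macrophages with 0, within each library, on a log axis with 95% counting intervals. Prdx1 and Cat stand highest in all 3 libraries, at 4.58 and 3.25 in air, while Prdx2, Prdx3 and Park7 lie near 1.

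Among cells with 0 Hmox1 UMIs, Prdx1 stood in the order air, 1 ppm, 1.5 ppm, each a single pooled library. Its levels were 1018 CPM in air, 1160.1 CPM at 1 ppm and 1355 CPM at 1.5 ppm. The ozone levels were 1.14-fold (1.12 to 1.16) and 1.33-fold (1.32 to 1.35) of air. Among Hmox1-positive cells both ozone libraries were below air, with 4658 CPM in air, 2106 CPM at 1 ppm and 3172 CPM at 1.5 ppm, in sets whose Hmox1 ratio also was highest in air. Cat was lower with ozone in both sets of cells. It stood at 122, 113 and 95.2 CPM in cells with 0 Hmox1 UMIs, and at 396, 165 and 207 CPM in Hmox1-positive cells. Cluster 13 held 85, 10 and 64 macrophages in these libraries, beside 297, 116 and 362 Hmox1-positive cells. Its part in the Prdx1 and Cat levels of the positive cells was not tested. The shares of Prdx1-rich cells followed the same split: cells with 10 or more Prdx1 UMIs were 40.4%, 11.2% and 33.7% of Hmox1-positive cells, and 1.71%, 2.04% and 5.14% of cells with none.

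Within single macrophage clusters, 11 had at least 50 cells in both the air and the 1.5 ppm library. Among those left out was cluster 4, with 38 cells in air and 946 at 1.5 ppm. Park7, Txn1 and Prdx5 were higher at 1.5 ppm in all 11, each with an interval above 1. No such count over all genes was made within clusters, so these counts and those at 1 ppm have no background share. The shift with transcript length was not removed from them. Park7 ratios ran from 1.57 to 2.22, Txn1 ratios from 1.26 to 1.90 and Prdx5 ratios from 1.19 to 1.86. Prdx2 was higher in 11 of 11, at 1.13 to 1.61, with 10 intervals above 1. Prdx3 was higher in 11 of 11 too, at 1.01 to 2.37, but with only 4 intervals above 1. Prdx6 was higher in 8 of 11, with 5 intervals above 1 and 1 below. Cat was lower in 10 of 11, with 9 intervals below 1, and the exception was cluster 9, of few UMIs per cell, at 1.06 (0.821 to 1.37).

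Prdx1 was higher in 9 clusters and lower in 2, with a median ratio of 1.17. The 2 lower clusters were those of the highest Prdx1: cluster 13 at 0.671-fold (0.651 to 0.691) and cluster 3, led by the metallothionein genes Mt2 and Mt1, at 0.977-fold (0.956 to 0.997), with 2550.1 CPM in air and 2490.2 CPM at 1.5 ppm. The highest ratio, 1.95 (1.84 to 2.08), was in cluster 11, led by the mitosis genes Ube2c, Cenpf and Cdc20. That cluster held 57 cells in air and 207 at 1.5 ppm. Over all macrophages with 3 or more G2 and M phase UMIs, a set given further on, the Prdx1 ratio was 1.02 (1.002 to 1.049). Sod1 was higher in 8 of 11 clusters but with only 2 intervals above 1 and 1 below, and Gsr in 8 with 4 above and 1 below, so neither had a common direction beyond counting error.

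At 1 ppm, 10 clusters could be compared with air. Prdx5 and Park7 were higher in 10 of 10, with 9 intervals above 1 each, and Txn1 in 9 with 8 above 1. Prdx1, whose level over all macrophages was 0.873-fold of air, was higher than air in 6 clusters, each with an interval above 1, and lower in 4, with 3 intervals below 1, and its median ratio was 1.04. The lowest was cluster 3, at 0.782-fold (0.761 to 0.804). Cat was lower in 10 of 10 but with only 3 intervals below 1, in clusters 3, 7 and 8. Clusters 0 and 5 hold a marker of airway epithelium among their 10 leading genes (Tppp3 and Epcam) and none of macrophages, although 12 of 13 macrophage markers met the limits given for cluster 13 in each. Without both clusters the log2 ratios at 1.5 ppm against air were 0.98 for Park7, 0.70 for Txn1, 0.64 for Prdx5 and -0.74 for Cat, which then passed 1.5-fold, and -0.19 for Prdx1.

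**Figure D4:**
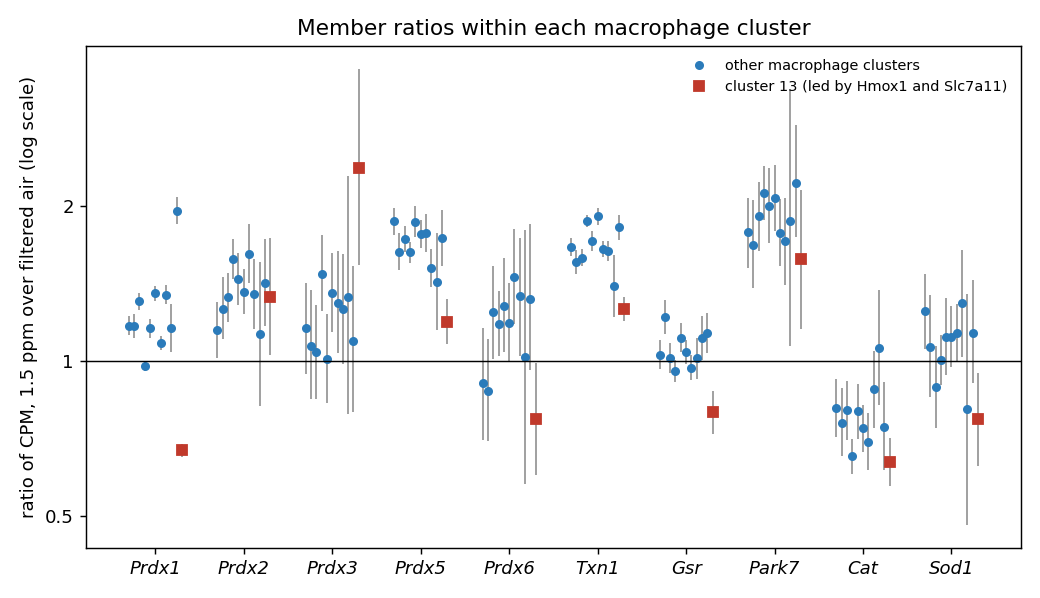
Ratio of CPM at 1.5 ppm to filtered air within each of 11 macrophage clusters, on a log axis, for each of the 10 genes; vertical lines are 95% counting intervals. All clusters lie above 1 for Txn1, Park7, Prdx5, Prdx2 and Prdx3, for Prdx3 with only 4 intervals above 1. The Hmox1-led cluster 13 (square) has the lowest Prdx1 ratio, 0.671.

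Cell division was also set against the members, since the share of dividing cells differed: thinned macrophages with 3 or more UMIs of G2 and M phase genes (such as Mki67, Top2a and Cdk1) were 234 of 3296 in air, 133 of 2109 at 1 ppm and 1092 of 5572 at 1.5 ppm. Between 9.68% and 13.4% of all genes were 1.5-fold or more higher in these cells. Of the members only Sod1 reached that: it was 1.54-fold, 1.56-fold and 1.60-fold higher than in the other cells of the same library. Txn1 was 1.38-fold, 1.38-fold and 1.29-fold higher, and Park7 1.28-fold, 1.42-fold and 1.18-fold. Prdx5 was lower, at 0.782-fold, 0.808-fold and 0.746-fold, as was Cat at 0.922-fold, 0.839-fold and 0.792-fold. Ratios at 1.5 ppm against air were also taken among cells under 3 such UMIs. The log2 ratios there were 1.04 for Park7, 0.79 for Txn1, 0.80 for Prdx5 and -0.49 for Cat. For Sod1 it was 0.08 in place of 0.24. Over all genes considered in these cells the median was -0.11. The part of cell division in the ratios was not tested.

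Other cell classes of the lavage held different members. Of the classes and clusters plotted at 1.5 ppm, airway epithelial-like cells had the most Prdx6, 1484 CPM in 56 cells (1348 to 1630). In air their 23 cells had 1390.5 CPM (1082 to 1760). These levels were 30.5-fold at 1.5 ppm and 34.8-fold in air of the macrophages of the same library. Cluster 20, led by Lmo7, F3 and the keratin gene Krt18 and left unnamed, had 472 CPM of Prdx6 in its 43 cells at 1.5 ppm, and 369 CPM of Sod1, 4.81-fold of macrophages (4.21 to 5.47). Free RNA from macrophages could bring at most 16.0 CPM of Prdx6 into the epithelial-like cells if all macrophage marker RNA there, 32.9% of its level in macrophages, were free.

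Neutrophil-like cells, of which 79 were found at 1.5 ppm, had 1349 CPM of Gsr (1205 to 1505), 2.85-fold of macrophages (2.55 to 3.18), and 261 CPM of Prdx6, 5.38-fold. Their Prdx1 and Cat, at 426 and 37.9 CPM, were below the most that free RNA could bring, 643 and 43.3 CPM, so expression by these cells cannot be told apart from free RNA there. Their median cell held 2289 UMIs. Cluster 12, led by the chemokine genes Ccl3 and Ccl4 and the matrix gene Thbs1, had 248 cells at 1.5 ppm and 0 in air. It held the highest Txn1 level of the classes and clusters plotted, 2725 CPM (2603 to 2852), 1.66-fold of macrophages, with 357 CPM of Prdx6 and 29.2 CPM of Cat, the latter under its free RNA bound of 45.9 CPM.

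Dendritic cells of the migratory kind bring antigen from tissue to lymph nodes. Cells like them were low in several members. In air their 27 cells had 178 CPM of Prdx1 (133 to 233), 0.124-fold of macrophages, and 54.7 CPM of Gsr, 0.127-fold. At 1.5 ppm the same class had 490.3 CPM of Prdx1 in 53 cells, of which up to 426 CPM could be free RNA, since macrophage marker RNA was at 27.9% of its macrophage level there and at 3.70% in air. T cell-like cells, 72 at 1.5 ppm, had more Park7 than macrophages, 199 against 111 CPM, or 1.79-fold (1.40 to 2.24), and less Gsr, at 0.358-fold. Cluster 14, led by the complement genes C1qa, C1qc and C1qb, had 834 CPM of Prdx1 and 109 CPM of Gsr at 1.5 ppm, 0.546-fold and 0.231-fold of macrophages. Its Gsr level was close to the 94.0 CPM that free RNA could bring.

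**Figure D5:**
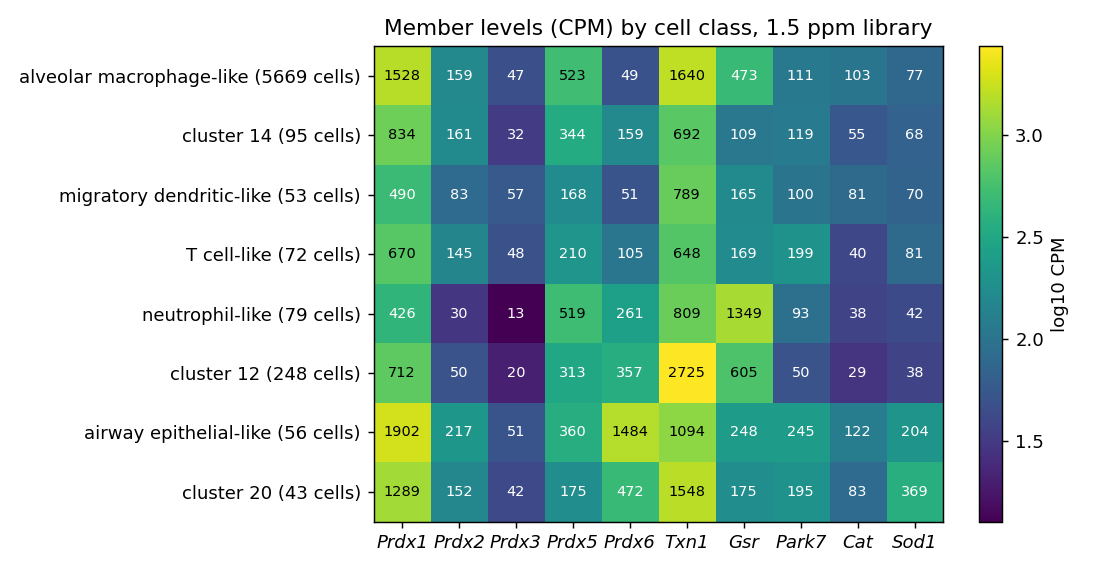
Level of each member (CPM, printed in each cell and coloured on a log10 scale) in cell classes and unnamed clusters of the 1.5 ppm library, with cell numbers. Cluster 10, unnamed for its low UMIs and with 262 cells in this library, is not plotted. Of those plotted, Prdx6 is highest in airway epithelial-like cells at 1484 CPM, Gsr in neutrophil-like cells at 1349 CPM and Txn1 in cluster 12 at 2725 CPM.

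The other genes of the pathway were followed in 4 lists. Of 31 thiol partners (thioredoxin reductases, glutaredoxins, sestrins, glutathione peroxidases and related genes) 15 could be considered at 1.5 ppm against air, of which 3 were called higher and none lower, with 12 above 0 and a median log2 ratio of 0.31. Over all genes considered in that comparison, 7.86% were called higher and 37.5% were above 0. The 3 called were Txndc17, a thioredoxin-like protein (123, 150.0 and 207 CPM in air, 1 ppm and 1.5 ppm), Glrx2, a mitochondrial glutaredoxin (51.0, 58.2 and 84.7 CPM) and Sod2, the mitochondrial dismutase (114, 127 and 174 CPM). At 1.5 ppm against 1 ppm, of 14 considered, Txnrd1 was called higher (log2 0.61) and Msra, which repairs oxidised methionine, lower (-0.59), where 4.52% of all genes were called higher and 1.38% lower. At 1 ppm against air, 0 of 15 were called, where 1.17% of all genes were.

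The partners that act directly on a member did not share 1 pattern. Txnrd1 stood at 158 CPM in air, 131 CPM at 1 ppm and 199 CPM at 1.5 ppm, lowest at 1 ppm as Prdx1 was. Srxn1 was at 28.6, 21.7 and 25.3 CPM, lowest at 1 ppm with intervals apart. Cluster 13 carried 30.5%, 7.66% and 12.1% of the Srxn1 UMIs of the macrophages in air, 1 ppm and 1.5 ppm. It also carried 19.4%, 3.47% and 6.43% of the Txnrd1 UMIs. The part of these cells in the order of the libraries was not tested. Sesn2 was at 13.9, 12.2 and 12.8 CPM, and its interval between the ozone libraries, 0.942 to 1.17, included 1. Txnip, which binds and inhibits thioredoxin, was at 622, 662 and 527 CPM. The endoplasmic reticulum peroxiredoxin Prdx4 stood at 23.0, 27.9 and 47.3 CPM, a log2 ratio of 1.04 at 1.5 ppm, but under the 50 CPM minimum. Txn2 (81.8, 88.7 and 85.1 CPM) and Txnrd2 (20.2, 21.0 and 18.0 CPM), which serve Prdx3 in mitochondria, and Ccs (22.8, 25.7 and 25.8 CPM), which loads copper onto Sod1, stayed within 1.5-fold of air.

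Among 8 considered genes of NADPH supply, 0 were called in any of the 3 comparisons, in which 1.17%, 11.3% and 5.9% of all genes were. Their median log2 ratio at 1.5 ppm against air was -0.02, with 4 above 0. In that comparison 2602 of all 4161 genes were below 0, with a median of -0.12, and 3.46% were called lower. Of 10 peroxide producers considered there, 8 were below 0, the median was -0.26 and 1 was called, the sulfhydryl oxidase gene Qsox1 at 52.2, 46.7 and 33.6 CPM (log2 -0.64). The NADPH oxidase subunit genes Cybb and Cyba went apart, with log2 ratios of -0.24 and 0.47. Of 5 peroxisome genes considered, against the same share of all genes, 4 were below 0 and 1 was called lower, Pex14, a part of the import machinery that brings catalase into peroxisomes, at 109, 86.9 and 69.5 CPM (log2 -0.65).

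Over 43 pairs of a cluster and a library with at least 50 cells, members were compared with 4203 genes by the Pearson correlation of log2(CPM + 1). The points include clusters of other cell classes and unnamed ones beside the macrophage clusters, and they share libraries and depth, so the values are descriptive. Prdx1 was most like Blvrb, the biliverdin reductase gene that acts after heme oxygenase (0.92), then Psmb5 (0.86) and Mpc1 (0.86). Txn1 was most like the ferritin light chain gene Ftl1 (0.93), Aurkaip1 and Atp6v1g1 (both 0.92). Cat was most like Vcp (0.87), Rit1 (0.86) and the heme transporter gene Slc48a1 (0.84), and Sod1 like the proteasome genes Pomp (0.89), Psmb4 (0.89) and Psmc3 (0.86).

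For the other members the nearest genes were Dad1 (0.90), Commd2 (0.89) and Vma21 (0.89) for Prdx2, and C1qbp (0.91), Guk1 (0.90) and Atp5a1 (0.89) for Prdx3. Prdx5 was most like Srp14 (0.90), Sem1 (0.90) and Arpc1b (0.90), and Prdx6 like Ubb (0.78), Eif1 (0.78) and Rabac1 (0.74). Park7 was most like Ppib (0.92), Sys1 (0.91) and Polr2j (0.90), and Gsr like Morrbid (0.78), Adam17 (0.71) and Clec4n (0.70). Of the 45 pairs of members, Prdx2 with Prdx3 (0.85) and Prdx1 with Cat (0.83) were the most alike, and Gsr with Prdx2 the least (-0.33).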

How the data were processed

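Airspace cells from 3 pooled libraries were read with a 10x Genomics Chromium 3' v3.1 kit, per the labels' protocols. The authors deposited unnormalized UMI counts for each barcode and gene, from Cell Ranger 8.0.0 and the GRCm39 build according to the submitters' processing notes. The handling of intronic reads is, in the sources used here, not given. The libraries held 59359742, 42825676 and 95403078 UMIs in 5307, 3233 and 7269 barcodes.

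Barcodes with at least 500 UMIs, 300 genes and at most 10% mitochondrial UMIs were kept. Scrublet (scanpy 1.11.5) marked 18 doublets, 0.146% of cells, too few to have worked; those were removed, so doublets remain among the 12279 cells. Cells were scaled to 10000 UMIs, and 2000 variable genes without members or pathway genes gave 30 principal components, 15 neighbours and 22 Leiden clusters at resolution 1.0 (leidenalg 0.10.2). Clusters were named from marker lists, by how many markers were seen in 25% or more of the cells at 25% or more of the highest cluster level; the scoring of names was set after the data were seen. With pathway genes left in, 11082 of 11105 macrophage-like cells were the same.

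UMIs were summed per library and class. Log2 ratios add 1 UMI to each sum. Levels have exact Poisson, ratios exact conditional and shares exact binomial (Clopper-Pearson) 95% intervals. TMM factors came from edgeR 4.0.16 as an alternative scaling only. Computations were tested on simulated data. Transcript lengths are from an annotation of GRCm38, matched by gene identifier for 99.8% of genes. Of duplicated symbols the row with more UMIs was used. The members and gene lists were chosen with earlier results of these data known. Named genes are the members, pathway genes past 1.5-fold (at most 6 per list), direct partners, and the 3 genes most like each member; cluster leaders, Cybb and Cyba were named after their values were seen.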

Additional observations from a re-analysis of the deposited data

How the results depend on the processing

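Each comparison was recomputed under 19 alternatives, 5 of them chosen after seeing the data: centring on genes of like transcript length or genomic span, leaving out clusters 0 and 5, and keeping only cells with 0 Hmox1 UMIs or under 3 G2 and M phase UMIs. No called member changed direction. Of the 30 member ratios, 23 kept their sign in all 17 alternatives that give one. The exceptions were Prdx1, Prdx3, Prdx6, Gsr and Sod1 at 1 ppm and Prdx1 and Sod1 at 1.5 ppm, against air; Gsr kept its sign in 5 of 17.

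At 1 ppm against air the members called were 1 (Park7) when centred on the median of all genes, and 0 otherwise. That centring moves all genes by 0.12 (log2) at 1.5 ppm against air, and the share of calls that were higher from 69.4% to 87.3%; at 1 ppm it moves from 31.9% to 51.2%, and to 44.2% with TMM scaling. At 1.5 ppm against air genomic span centring gives 57.8%. At 1.5 ppm against air 1 member (Park7) was called at 2-fold and 0 when centred on like transcript length; the others gave 2 to 4. At 1.5 ppm against 1 ppm, 2 (Txn1 and Park7) were called with no upper mitochondrial limit, and 0 among cells of 2.5 to 4% mitochondrial UMIs, with CPM without mitochondrial genes, without cells holding 3 or more UMIs of G2 and M phase genes, at 2-fold, when centred on like transcript length or span, without clusters 0 and 5, and in both added cell sets. Txn1 lay at the limit there. The share of all genes called was 19.7%, 34.4% and 31.6% in the 3 comparisons with no minimum level, and 0.199%, 1.78% and 1.43% at 2-fold; at 1 ppm against air it was 0.722% when centred on like span. The cause was not tested, apart from what each setting removes.

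With 1 Hmox1 UMI in place of 2 the ratios for air, 1 ppm and 1.5 ppm were 2.40, 1.33 and 1.48 for Prdx1 and 1.86, 1.10 and 1.30 for Cat, all above 1. The cut on G2 and M phase UMIs without thinning also removes deep cells: Prdx1 at 1 ppm was then 0.02, and -0.18 with thinned counts. No paired analysis was possible because each group is 1 library. Depth limits Prdx3 and Prdx6, under 50 CPM, and classes of under 100 cells.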
